A study of Mus musculus with 66 samples.

Results

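Rorb h4/h4 and Rorb h3/h3 spinal cords were compared directly, allele against allele, without passing through wild type. The rule took the libraries labelled spinal cord with genotype H4 (4 mice) or H3 (4 mice), 8 of the 66 libraries in the series. RNA was sequenced from whole spinal cords flushed from the column and from brain hemisections, with polyadenylated RNA selected. The Rorb h4/h4 mice were 2 females and 2 males of 8.4 to 8.6 weeks, and the Rorb h3/h3 mice were 1 female and 3 males of 8.0 to 9.6 weeks. The h4 mutation arose in a C57BL/6J-derived stock that carries a targeted Il1r1 allele from another strain, and it is a single-base change in the coding part of Rorb, predicted to end both receptor isoforms early. The h3 mutation arose in albino C57BL/6J mice that carry a Tyr mutation, and its causal base is not known. All mutant mice share the high-stepping gait by which these alleles were found. Each allele is a line of its own, so allele, strain of origin and colony cannot be told apart in any difference between them. C57BL/6J spinal cords (3 mice, 2 females and 1 male, 8.0 weeks) entered no test and are given as a reference level.

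Rorb encodes RORβ, an orphan nuclear receptor that binds DNA as a monomer at a retinoic acid receptor-related response element. In the spinal cord it is made by inhibitory interneurons of the dorsal horn, which gate sensory input to the circuits that shape walking. Loss of RORβ in these neurons is known to give an exaggerated flexion of the hind limbs, the duck or high-stepping gait. The comparison asks what else differs between cords in which Rorb RNA is low and cords in which it is at the wild-type level, while the gait is shared.

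Rorb itself (ENSMUSG00000036192, chr19:18930609-19111196 in GRCm38.p6) separated the alleles as the labels say. CPM are counts per gene scaled to library size, and TPM also divides by transcript length. In Rorb h3/h3 cords Rorb stood at 42.6, 34.6, 38.9 and 36.1 CPM. In Rorb h4/h4 cords it stood at 8.29, 7.11, 10.1 and 7.89 CPM. The C57BL/6J cords held 40.3, 38.9 and 36.0 CPM, inside the Rorb h3/h3 range. The log2 fold change of Rorb h4/h4 over Rorb h3/h3, the sign used throughout, was -2.19 (SE 0.10, edgeR adjusted p = 7.47e-08). An exact two-sided permutation test gave p = 0.0286, the smallest value that 4 against 4 libraries allow. Since the alleles are known by this difference, it checks the labels and is no result of the comparison. Per length, Rorb stood at 8.05 ± 0.603 TPM (SD, n = 4) in Rorb h3/h3 cord, against 2.04 ± 0.251 TPM in Rorb h4/h4. Rora, its closest relative, stood at 24.4 ± 1.46 and 24.8 ± 0.432 TPM. The clock repressors Nr1d1 and Nr1d2, which bind the same element, stood at 41.4 ± 5.40 against 41.2 ± 4.65 TPM and at 69.7 ± 9.65 against 65.2 ± 6.25 TPM. None of these 3 receptors was called, with log2 fold changes between -0.10 and -0.0047.

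The genes at the strain markers did not separate the groups in this way. Il1r1, the interleukin 1 receptor targeted in the stock of origin of h4, held 5.53, 4.19, 4.59 and 4.88 CPM in Rorb h3/h3 and 3.67, 3.27, 3.29 and 5.12 CPM in Rorb h4/h4. The ranges overlapped, and the log2 fold change was -0.32 (SE 0.15, edgeR adjusted p = 0.389; exact permutation p = 0.143). Counts per gene do not show which part of the transcript was read, so they do not check the targeted allele. Tyr, the tyrosinase of melanin synthesis, was below the count filter, with means of 0.0975 ± 0.0670 TPM in Rorb h3/h3 and 0.0350 ± 0.0404 TPM in Rorb h4/h4.

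Across all genes the difference between the alleles was made of many small shifts. Of 17249 genes tested, 220 were called at an edgeR adjusted p of 0.05, 1.28% of those tested. The call was higher in Rorb h4/h4 for 138 genes (0.800% of those tested) and lower for 82 (0.475%). The median absolute log2 fold change of the called genes was 0.28, and 15 of them differed by more than 2-fold. At an unadjusted p under 0.05 there were 2158 genes (12.5%), and the median log2 fold change over all genes tested was 5e-04. DESeq2 called 504 of the 17249 genes, 292 higher and 212 lower in Rorb h4/h4. The sexes were not balanced between the groups. With sex as a covariate 139 genes were called, 134 of them among the 220, and in males alone (2 against 3) 19 were called, 14 of them shared. The number of calls fell to 145 without Rorb h3/h3 replicate 2 and to 114 without replicate 3. It fell to 124, 101, 101 and 130 without Rorb h4/h4 replicates 1, 2, 3 and 4. The log2 fold change of all 220 kept its sign in each of these fits. The first principal component of the 500 most variable genes, 33.4% of the variance, followed sex (R2 0.97) more than allele (R2 0.15), and none of the first 3 components separated the alleles.

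**Figure D1:**
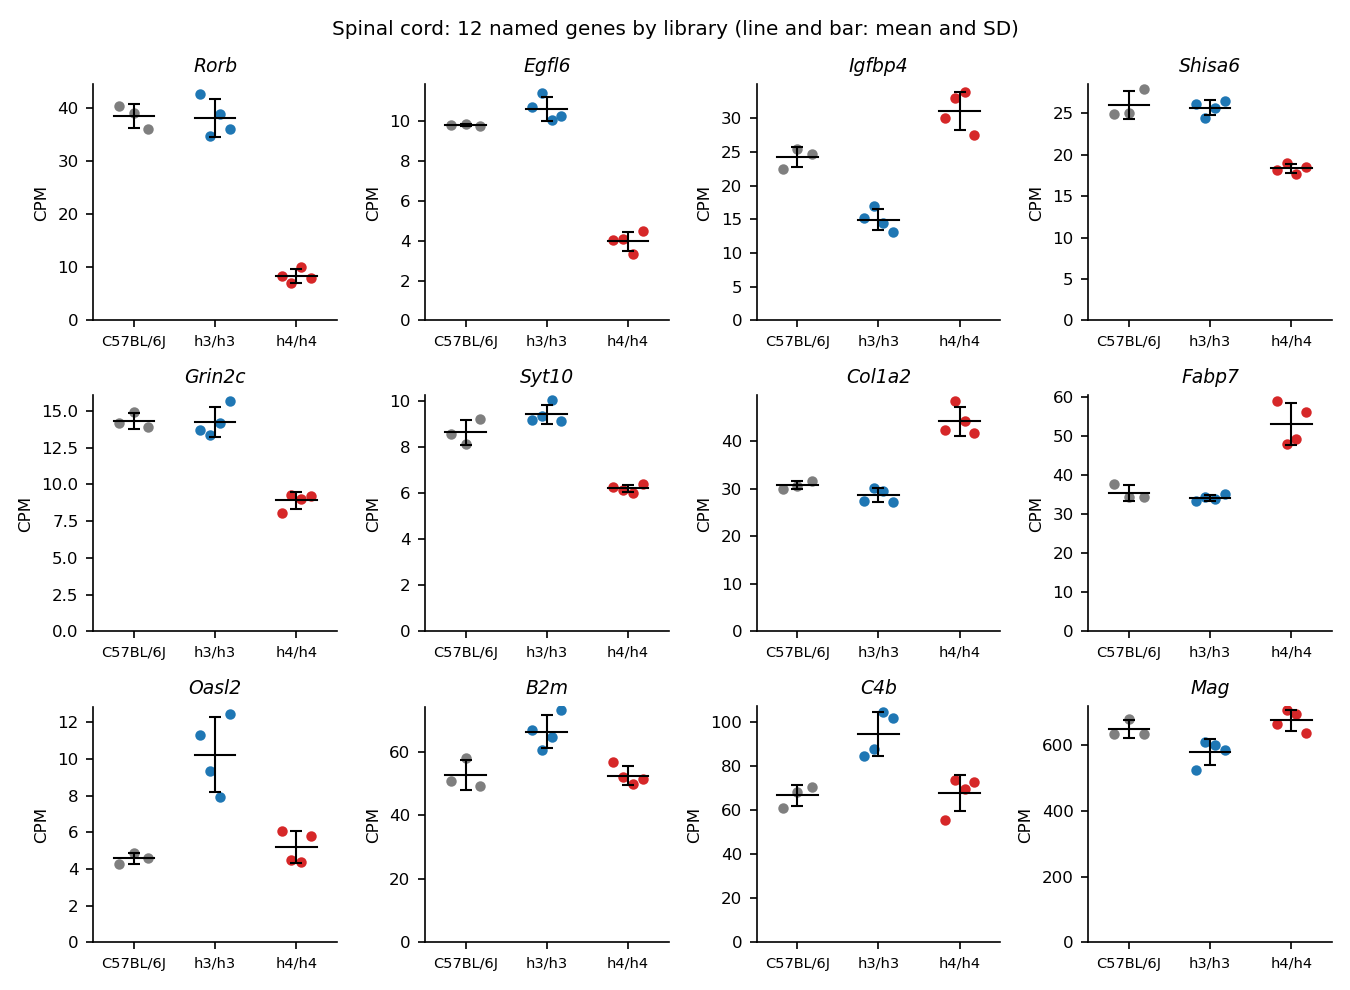
CPM of 12 genes in each spinal cord library of C57BL/6J (grey, n = 3), Rorb h3/h3 (blue, n = 4) and Rorb h4/h4 (red, n = 4), with the mean and SD as black line and bar. In every panel the 4 blue points and the 4 red points do not overlap, while the grey points lie with the blue ones for Rorb, Egfl6, Shisa6, Grin2c and Fabp7, and with the red ones for Oasl2, B2m and C4b.

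Besides Rorb, the gene with the smallest p-value was Egfl6, a secreted EGF-repeat matrix protein on chromosome X. It held 10.7, 11.4, 10.1 and 10.3 CPM in Rorb h3/h3 and 4.02, 4.09, 3.33 and 4.49 CPM in Rorb h4/h4. The C57BL/6J cords held 9.80, 9.85 and 9.76 CPM, close to Rorb h3/h3, and the log2 fold change was -1.41 (SE 0.09, edgeR adjusted p = 6.69e-06). In brain it was lower in Rorb h4/h4 too, with a log2 fold change of -2.26 (SE 0.22, adjusted p = 8.65e-04). Per length, Egfl6 in Rorb h3/h3 cord (7.82 ± 0.748 TPM) was near the level of Rorb.

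Igfbp4, an insulin-like growth factor binding protein, was the called gene with the smallest p-value among those higher in Rorb h4/h4. It held 15.2, 16.99, 14.4 and 13.2 CPM in Rorb h3/h3 and 30.1, 33.0, 33.8 and 27.6 CPM in Rorb h4/h4, a log2 fold change of 1.05 (SE 0.08, edgeR adjusted p = 3.83e-05). The C57BL/6J cords lay between, at 22.5, 25.4 and 24.6 CPM, apart from both alleles. In brain its log2 fold change was 0.16, and the difference between the tissues, tested in 1 fit with each animal as a block, was 0.89 (SE 0.10, adjusted p = 0.00300).

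Among the 12 genes with the smallest p-values on the lower side were Grin2c, Shisa6 and Syt10. Grin2c, the GluN2C subunit of NMDA receptors, held 13.7, 13.3, 14.1 and 15.7 CPM in Rorb h3/h3 and 8.07, 9.28, 9.03 and 9.22 CPM in Rorb h4/h4 (log2 fold change -0.68, SE 0.07, adjusted p = 5.32e-04). Shisa6, an auxiliary protein of AMPA receptors, held 26.2, 24.5, 25.6 and 26.5 CPM against 18.2, 18.96, 17.7 and 18.6 CPM (-0.49, SE 0.05, adjusted p = 4.99e-04). Syt10, a synaptotagmin that acts as a calcium sensor of vesicle release, held 9.19, 9.34, 10.04 and 9.15 CPM against 6.26, 6.16, 6.03 and 6.40 CPM (-0.60, SE 0.07, adjusted p = 8.95e-04). For Grin2c and Shisa6 the 3 C57BL/6J libraries lay at the level of Rorb h3/h3, between 13.9 and 14.9 CPM and between 24.96 and 28.0 CPM. Shisa6 was among the 3 genes whose allele difference was called as unlike between cord and brain (difference -0.44, SE 0.07, adjusted p = 0.0464), since in brain its log2 fold change was -0.04. Smaller shifts passed the test for Camk2a, the alpha subunit of calcium/calmodulin kinase II (-0.26), for Syt1, the main fast calcium sensor of release (-0.28), and for Ebf3, a transcription factor of developing neurons (-0.27).

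Of 12 general neuronal markers, 12 had a negative log2 fold change, while 50.2% of all genes tested had a positive one, and 2 were called where 0.475% of all genes were called lower, Syt1 and the neuronal long RNA Snhg11 (-0.17, SE 0.04, adjusted p = 0.0334), with a list median of -0.05. That median was -0.0347 without Rorb h3/h3 replicate 2 and -0.0823 in males alone. The cytoskeletal and vesicle markers Nefl (-0.06), Nefm (-0.06), Snap25 (-0.05), Tubb3 (-0.01) and Syn1 (-0.01) were near zero. The summed CPM of the 12 ranged from 10416 to 11393 in Rorb h3/h3 and from 10193 to 10706 in Rorb h4/h4, which overlap. The Snhg11 call was lost with sex as a covariate (adjusted p = 0.0590) and when 6 of the 8 libraries were left out in turn, at adjusted p up to 0.129. In whole cord, fewer cells of a type and less RNA per cell cannot be told apart.

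Of 7 NMDA receptor subunits, all 7 had a negative log2 fold change and 5 had an unadjusted p under 0.05, against 12.5% of all genes tested, but Grin2c alone was called by edgeR, where 0.475% of all genes were called lower. DESeq2 called Grin2b too. Grin2b stood at -0.18 (adjusted p = 0.111), Grin2d at -0.20 (0.194) and the obligatory subunit Grin1 at -0.09 (0.303). Their summed CPM was 771.8 to 794.8 in Rorb h3/h3 and 688.0 to 734.8 in Rorb h4/h4 without overlap, and 733.2 to 748.9 in C57BL/6J, below Rorb h3/h3 and reaching into the Rorb h4/h4 range. In brain the median log2 fold change of the 7 was 4e-04. Of 16 GABA-A and glycine receptor subunits, 1 was called, Gabra2, at 73.1 CPM in Rorb h3/h3 and 60.9 CPM in Rorb h4/h4 (-0.26, SE 0.05, adjusted p = 0.0293). The C57BL/6J mean of Gabra2 was 83.3 CPM, above both. Its call was lost without 6 of the 8 libraries in turn, at adjusted p up to 0.0931.

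The inhibitory dorsal horn genes are of interest since Rorb marks a part of these neurons. Of 21 tested, 14 were lower and 7 higher in Rorb h4/h4, the list median was -0.13, and 4 were called, 3 lower and 1 higher, where 0.475% of all genes tested were called lower and 0.800% higher. At an unadjusted p under 0.05 there were 11 of the 21, against 12.5% of all genes tested. In males alone the median was -0.0443, with sex as a covariate Sall3 and Slc6a9 stayed called and Gal and Pdyn did not, and the summed CPM overlapped, at 1967 to 2024 in Rorb h3/h3 and 1747 to 2044 in Rorb h4/h4. Sall3, a zinc-finger factor, held 23.5, 22.8, 24.0 and 21.7 CPM in Rorb h3/h3 and 17.5, 19.4, 18.2 and 17.5 CPM in Rorb h4/h4 (-0.34, SE 0.06, adjusted p = 0.0114). The peptide genes Gal (galanin) and Pdyn (prodynorphin) were lower as well. Gal fell from 2.75, 2.59, 2.77 and 2.699 CPM in Rorb h3/h3 to 1.68, 1.75, 1.91 and 1.64 CPM in Rorb h4/h4 (-0.63, SE 0.13, adjusted p = 0.0281). Pdyn stood at 13.6 ± 0.531 against 10.96 ± 0.537 CPM (SD, n = 4 each; -0.31, SE 0.06, adjusted p = 0.0298). Slc6a9, a glycine transporter that astrocytes also make, was higher, at 251 ± 5.12 against 281 ± 5.47 CPM (0.16, SE 0.03, adjusted p = 0.0307). The Sall3 call stayed without each library in turn, whereas Gal kept its call in 1, Pdyn in 2 and Slc6a9 in 0 of the 8 such fits, at adjusted p up to 0.0772, 0.0931 and 0.112. The GABA synthesis genes Gad1 (-0.13, adjusted p = 0.188) and Gad2 (-0.14, 0.0994), the vesicular transporter Slc32a1 (-0.03, 0.780) and the lineage factor Pax2 (-0.01, 0.979) were not called by edgeR. Nor were Lhx1 (-0.34, 0.0779) and Lhx5 (-0.37, 0.126). DESeq2 called Gad2 and Lhx1 besides the 4 edgeR calls.

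No excitatory dorsal horn gene was called among 19 tested by edgeR, 13 of them with a negative log2 fold change. At an unadjusted p under 0.05 there were 3 of the 19, against 12.5% of all genes tested. Tac1, the substance P precursor, was among those not called by edgeR (16.8 against 14.3 CPM, -0.23, adjusted p = 0.102). DESeq2 called 2 of the 19, Tac1 among them, and 212 of all 17249 genes lower. Among 11 cholinergic and motor neuron genes, 3 had a positive and 8 a negative log2 fold change, with a median of -0.06. Of these 1 was called, where 0.800% of all genes were called higher. This was Ret, the GDNF receptor kinase, which was higher in Rorb h4/h4 (122 against 137 CPM, 0.17, adjusted p = 0.0337). Without Rorb h3/h3 replicate 1 it kept its call and without each of the other 7 libraries it lost it, at adjusted p up to 0.164.

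**Figure D2:**
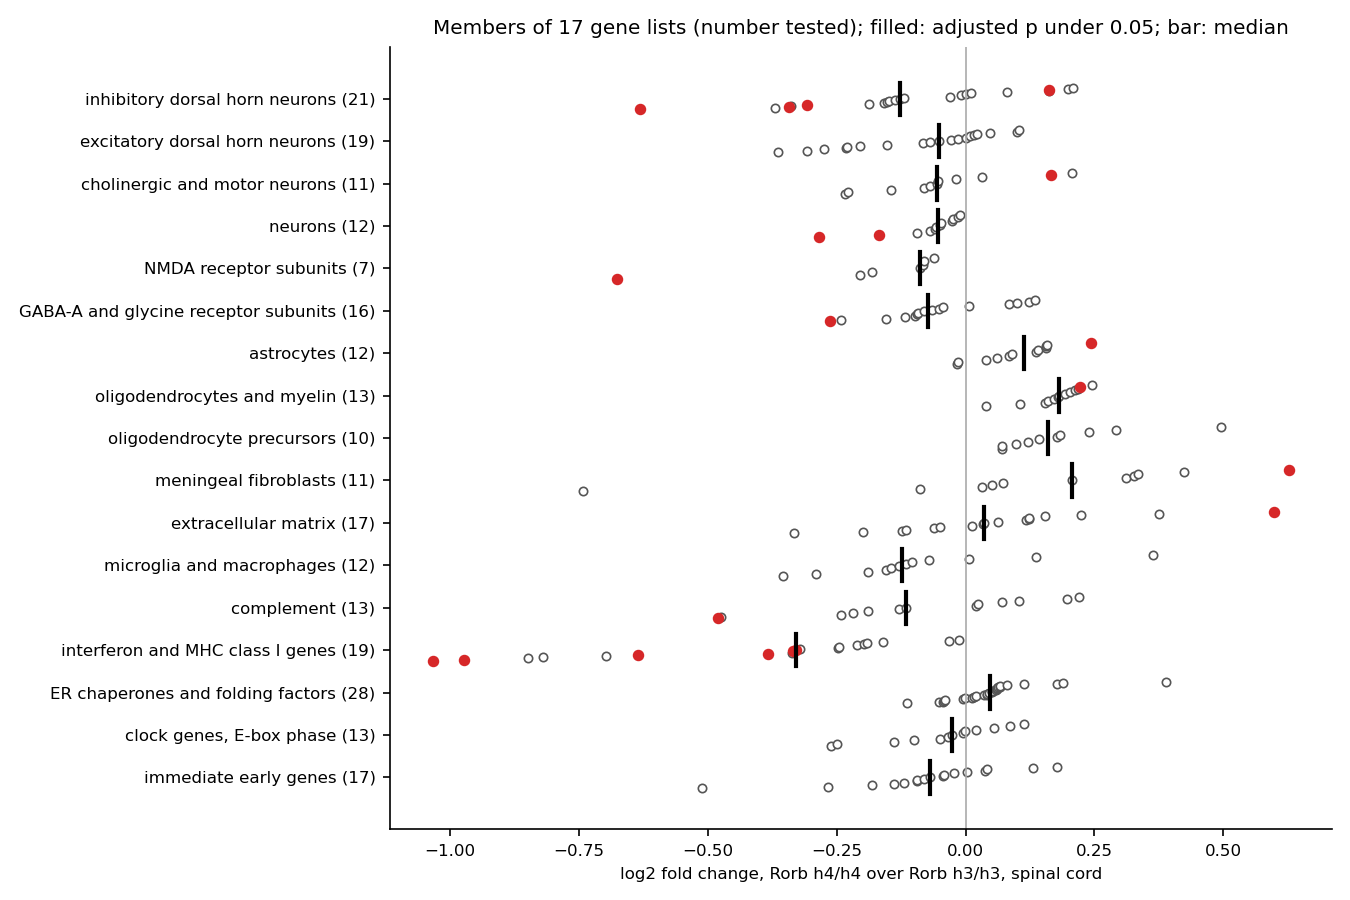
log2 fold change of Rorb h4/h4 over Rorb h3/h3 spinal cord for each tested member of 17 gene lists, with called members (edgeR adjusted p under 0.05) filled and the list median as a black bar. All 19 interferon and MHC class I members lie left of zero and all 13 oligodendrocyte and 10 precursor members right of it, while most neuronal lists scatter around small negative medians.

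Interferon-response and MHC class I genes had the lowest median of the lists with more than 5 tested members, and the C57BL/6J cords lay with Rorb h4/h4. These genes are switched on through interferon-stimulated response elements, where the STAT and IRF factors bind, and MHC class I molecules present peptides to cytotoxic T cells. Of 19 tested, 19 had a negative log2 fold change, 14 had an unadjusted p under 0.05 and 6 were called, and the median was -0.33. In the same fit 0.475% of all genes were called lower. With sex as a covariate 4 of the 6 stayed called and the median was -0.34. The C57BL/6J mean was nearer to Rorb h4/h4 than to Rorb h3/h3 for 18 of the 19, against 53.2% of all genes tested.

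Oasl2, an oligoadenylate synthetase-like antiviral protein, held 11.3, 9.32, 7.90 and 12.4 CPM in Rorb h3/h3, 6.08, 4.52, 4.37 and 5.77 CPM in Rorb h4/h4, and 4.25, 4.86 and 4.61 CPM in C57BL/6J. The Rorb h3/h3 libraries were all above the other 7, and the log2 fold change was -0.97 (SE 0.14, adjusted p = 0.00551). Usp18, which removes ISG15 from proteins and damps interferon signalling, held 1.68, 1.73, 2.01 and 2.47 CPM in Rorb h3/h3 and 0.924 to 0.973 CPM in Rorb h4/h4 (-1.03, SE 0.18, adjusted p = 0.0134). B2m, the invariant chain of MHC class I, held 66.9, 60.6, 64.8 and 73.03 CPM against 56.7, 52.1, 49.8 and 51.5 CPM (-0.34, SE 0.06, adjusted p = 0.0127). The heavy chain gene H2-D1 held 63.8, 63.3, 58.1 and 76.1 CPM against 52.2, 48.8, 51.0 and 48.3 CPM (-0.38, SE 0.07, adjusted p = 0.0139), and its call was lost without Rorb h4/h4 replicate 2 (adjusted p = 0.0504). H2 genes are near-identical copies of each other, so the split of reads between them is uncertain. The other two called members, named for completeness, were Ifit3, an antiviral RNA-binding protein (17.5 against 11.2 CPM, -0.63, adjusted p = 0.0263), and H2-K1 (27.1 against 21.6 CPM, -0.33, adjusted p = 0.0466). The regulators Irf7 (-0.70, adjusted p = 0.135) and Stat2 (-0.03, 0.911) were not called by edgeR, nor was Isg15 (-0.01, 0.993). DESeq2 called 10 of the 19, Irf7 among them, and 212 of all 17249 genes lower.

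The summed CPM of the 19 genes was 323.3, 300.3, 303.4 and 370.4 in Rorb h3/h3. It was 267.6, 256.8, 247.1 and 262.3 for the Rorb h4/h4 libraries, and 236.3 to 256.1 in C57BL/6J. Of the other called genes over 2-fold, 4 that were lower in Rorb h4/h4 are also known to respond to interferon and were named after their values were seen. Cxcl10, a T cell attracting chemokine, held 1.43, 1.48, 1.71 and 2.57 CPM in Rorb h3/h3 and 0.415, 0.249, 0.307 and 0.756 CPM in Rorb h4/h4, with C57BL/6J at 0.288 to 0.395 CPM (-2.02, SE 0.32, adjusted p = 0.00839). The DNA sensor Ifi204 (1.12 against 0.433 CPM, -1.35), the helicase Ddx60 (2.71 against 1.29 CPM, -1.05) and Slfn8 (1.80 against 0.877 CPM, -1.03) showed the same order, with C57BL/6J means of 0.352, 1.03 and 0.609 CPM.

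The 250 bases before the start of 4 interferon-responsive genes called lower are shown, from RefSeq in GRCm38.p6, since a core of the interferon-stimulated response element could be looked for there. Capitals mark matches on either strand to GAAA, any 2 bases and GAAA, so that TTTC, 2 bases and TTTC is the same motif read from the other strand. B2m is on the plus strand at chr2:122147437-122147686, Ifit3 on the plus strand at chr19:34583279-34583528, Cxcl10 on the minus strand at chr5:92348890-92349139 and Ddx60 on the plus strand at chr8:61927837-61928086, and each is written 5′ to 3′ toward its gene.
B2m: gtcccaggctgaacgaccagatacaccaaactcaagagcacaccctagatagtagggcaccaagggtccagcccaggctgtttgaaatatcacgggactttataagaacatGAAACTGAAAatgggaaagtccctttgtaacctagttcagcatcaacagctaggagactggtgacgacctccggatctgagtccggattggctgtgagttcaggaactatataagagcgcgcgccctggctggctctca
Ifit3: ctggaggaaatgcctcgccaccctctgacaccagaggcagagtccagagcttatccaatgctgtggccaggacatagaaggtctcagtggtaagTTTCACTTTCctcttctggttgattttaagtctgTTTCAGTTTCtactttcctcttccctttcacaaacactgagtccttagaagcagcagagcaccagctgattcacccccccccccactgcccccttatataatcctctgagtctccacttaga
Cxcl10: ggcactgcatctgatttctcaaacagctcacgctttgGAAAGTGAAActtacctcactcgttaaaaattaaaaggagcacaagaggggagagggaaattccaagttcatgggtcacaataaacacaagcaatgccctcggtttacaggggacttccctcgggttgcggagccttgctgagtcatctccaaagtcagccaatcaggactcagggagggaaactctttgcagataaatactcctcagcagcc
Ddx60: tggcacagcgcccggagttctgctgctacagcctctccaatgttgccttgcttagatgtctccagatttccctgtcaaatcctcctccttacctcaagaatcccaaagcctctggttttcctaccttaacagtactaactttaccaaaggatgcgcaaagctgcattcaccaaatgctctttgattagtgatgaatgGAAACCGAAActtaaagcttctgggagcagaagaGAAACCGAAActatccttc
B2m had 1 match, beginning 139 bases before the start, Ifit3 had 2, Cxcl10 had 1 and Ddx60 had 2. These 4 were chosen after their matches were seen, and of the 14 genes of the interferon list with a window 6 did (42.9%). Over all 32851 promoter windows of this length 2.98% held a match, and among the tested genes with a window 378 of 12090 did (3.13%). Among the genes called lower in Rorb h4/h4, 61 had a window and 11 of them held a match, B2m, Btaf1, Cxcl10, Ddx60, Ebf1, Gbp7, H2-T23, Ifit3, Lgals9, Slfn8 and Syt6. Among the genes called higher, 1 of 100 did, Tnpo2. The ROR half-site AGGTCA was found, on either strand, before 14 of the 61 lower and 13 of the 100 higher genes, against 13.1% of the tested genes, and its extended form TAGGTCA before 2 and 2, against 1.96%. Among the 14 were the related MHC class I genes H2-D1, H2-K1, H2-Q7 and H2-T23, so their matches are not independent. AGGTCA is contained in TAGGTCA, and a match in a window is a description of letters, not of binding.

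**Figure D3:**
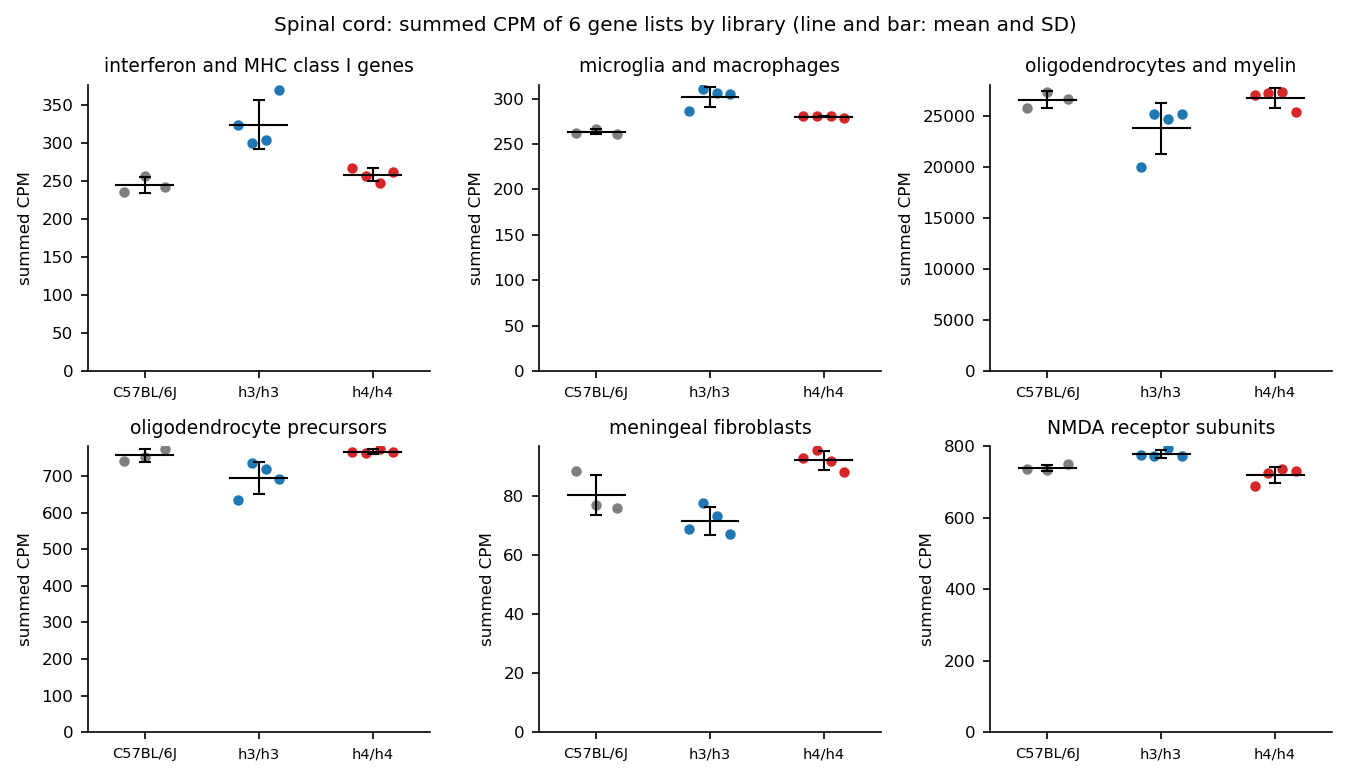
Summed CPM of 6 gene lists in each spinal cord library of C57BL/6J (grey), Rorb h3/h3 (blue) and Rorb h4/h4 (red), with the mean and SD as black line and bar and each axis starting at 0. The 4 Rorb h3/h3 libraries lie above all others for the interferon and MHC class I genes (300.3 to 370.4) and below all others for the oligodendrocyte and myelin genes (20053 to 25247).

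Markers of microglia and complement genes were examined beside the interferon genes. Of 12 tested microglial and macrophage markers, 9 had a negative log2 fold change and none was called by edgeR or DESeq2, with a median of -0.12. Of these markers 5 had an unadjusted p under 0.05, against 12.5% of all genes tested. The summed CPM of the microglial markers was 285.9 to 310.5 in Rorb h3/h3, 279.1 to 281.1 in Rorb h4/h4 and 261.4 to 266.5 in C57BL/6J, so that the alleles did not overlap and both lay above wild type. Among the defining markers Csf1r stood at -0.15 (adjusted p = 0.181), Cx3cr1 at -0.15 (0.243), Tmem119 at 0.01 (0.986) and P2ry12 at 0.14 (0.414). The part of microglia in the interferon difference was not tested. Of 13 complement genes 6 had a positive and 7 a negative log2 fold change. C3 was among the higher ones, at 91.1 against 104 CPM (0.20, adjusted p = 0.311), and was not called. The 1 called was C4b, a component of the classical pathway that astrocytes also make, where 0.475% of all genes were called lower. C4b held 84.5, 87.6, 104 and 102 CPM in Rorb h3/h3 and 55.8, 73.5, 69.6 and 72.7 CPM in Rorb h4/h4 (-0.48, SE 0.09, adjusted p = 0.0153), with C57BL/6J at 61.2 to 70.6 CPM. Without Rorb h3/h3 replicate 3 its adjusted p was 0.0560. The C1q chains, which microglia make, stood at -0.13 (C1qa), -0.19 (C1qb) and -0.12 (C1qc) and were not called. C4b and its neighbour C4a are near-identical, so reads may be shared.

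Markers of oligodendrocytes had small positive log2 fold changes, most of them not called. Of 13 tested markers of oligodendrocytes and myelin, 13 had a positive log2 fold change, 11 at an unadjusted p under 0.05, against 12.5% of all genes tested, and the median was 0.18, but 1 was called, where 0.800% of all genes were called higher. This was Mag, an adhesion protein of the inner myelin membrane, at 524, 611, 601 and 584 CPM in Rorb h3/h3 and 666, 709, 695 and 636 CPM in Rorb h4/h4 (0.22, SE 0.05, adjusted p = 0.0464). Its call was lost without each of the 8 libraries in turn (adjusted p 0.0507 to 0.148), and with sex as a covariate none of the list was called. Not called by edgeR were Mbp at 0.15 (adjusted p = 0.353), Mobp at 0.17 (0.165) and Cnp at 0.21 (0.128). DESeq2 called 5 of the 13, Mag and Cnp among them, and 292 of all 17249 genes higher. The summed CPM of the 13 was 20053, 25247, 24741 and 25176 in Rorb h3/h3. It was 27057, 27322, 27389 and 25377 for the Rorb h4/h4 libraries, and 25799 to 27413 in C57BL/6J. Rorb h3/h3 replicate 1, the oldest mouse of the 8, was the lowest, and the closest libraries of the alleles were 25247 and 25377. Without it the median of the list was 0.12. Called genes outside the list that oligodendrocytes are known to make included Bcas1, of cells entering myelination, which held 546 and 661 CPM on average (0.28, adjusted p = 0.00199), and Gpd1, a glycerol phosphate dehydrogenase, at 119, 119, 117 and 114 against 142, 149, 145 and 150 CPM (0.32, SE 0.03, adjusted p = 3.16e-04). For both, C57BL/6J (657 and 145 CPM) was at the level of Rorb h4/h4. Of 10 precursor markers 10 had a positive log2 fold change, 4 at an unadjusted p under 0.05 and none called by edgeR, with a median of 0.16 and summed CPM of 634.9 to 734.2 against 761.2 to 774.5. DESeq2 called 1 of the 10, Olig2, and without Rorb h3/h3 replicate 1 the median was 0.0912.

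Of 12 tested astrocyte markers, 10 had a positive log2 fold change, 7 at an unadjusted p under 0.05, the median was 0.11 and 1 was called, S100b, a calcium-binding protein (424 against 501 CPM, 0.24, adjusted p = 0.0327). The shares over all genes tested were 12.5% at such a p and 0.800% called higher. Their summed CPM overlapped, at 7563 to 8441 in Rorb h3/h3 and 8282 to 8502 in Rorb h4/h4, and their median in brain was -0.02. The S100b call was lost with sex as a covariate (adjusted p = 0.0563) and without 5 of the 8 libraries in turn, at adjusted p up to 0.103. The reactive marker Gfap stood at 0.16 (adjusted p = 0.383) and the glutamate transporters Slc1a2 and Slc1a3 at -0.02 and 0.16. Among the genes with the smallest p-values, Fabp7, a lipid-binding protein of radial glia and astrocytes, rose from 33.4, 34.5, 34.0 and 35.2 CPM in Rorb h3/h3 to 59.2, 48.1, 49.3 and 56.2 CPM in Rorb h4/h4 (0.64, SE 0.06, adjusted p = 2.79e-04). The C57BL/6J libraries held 37.9, 34.4 and 34.4 CPM of Fabp7, near Rorb h3/h3. Dbi, an acyl-CoA binding protein of glia, rose too, from 131 ± 6.67 to 171 ± 7.17 CPM (SD, n = 4 each; 0.39, SE 0.04, adjusted p = 6.08e-04). Phgdh, which starts serine synthesis in astrocytes and is an ATF4 target, stood at 60.2 and 71.3 CPM (0.24, adjusted p = 0.0170), and lost its call without 3 of the 8 libraries in turn, at adjusted p up to 0.0760.

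Col1a2, Fbln1 and Myoc were called higher in Rorb h4/h4, whereas most other matrix and fibroblast genes were not called. Col1a2, a chain of type I collagen, held 27.5, 30.3, 29.5 and 27.3 CPM in Rorb h3/h3 and 42.4, 48.6, 44.3 and 41.9 CPM in Rorb h4/h4 (0.63, SE 0.06, adjusted p = 1.23e-04). C57BL/6J stood at 29.9 to 31.7 CPM, with Rorb h3/h3. Fbln1, a fibulin of elastic fibres, stood at 10.1, 9.49, 12.025 and 10.3 against 14.3, 15.9, 16.8 and 16.6 CPM (0.60, SE 0.08, adjusted p = 0.00355). Myoc, the myocilin gene, rose from 44.3, 51.5, 50.8 and 39.4 to 82.6, 86.0, 82.5 and 66.6 CPM (0.77, SE 0.09, adjusted p = 7.50e-04), with C57BL/6J at 47.5 to 51.7 CPM. The partner chain Col1a1 stood at 0.31 (adjusted p = 0.122) and the fibroblast markers Dcn and Col3a1 at 0.03 and 0.05. Of 11 meningeal fibroblast markers 9 had a positive and 2 a negative log2 fold change, with Col1a2 called and a median of 0.21, and of 17 matrix genes 11 had a positive one, with Fbln1 called and a median of 0.04, which was 0.0893 without Rorb h3/h3 replicate 3 and 0.0792 in males alone. Of all genes tested 0.800% were called higher. Among the 17 matrix genes 7 had an unadjusted p under 0.05, against 12.5% of all genes tested. DESeq2 called Fbln1, Bgn (edgeR 0.38) and Lamb1 (edgeR -0.33) of the 17. The summed CPM of the fibroblast markers was 67.1 to 77.7 in Rorb h3/h3, 88.0 to 95.6 in Rorb h4/h4 and 76.2 to 88.4 in C57BL/6J. How much meninges each cord kept was not tested. Markers of nerve roots summed to 183.6 to 193.3 CPM in Rorb h3/h3 and 195.9 to 204.7 CPM in Rorb h4/h4, with none of 9 called by edgeR or DESeq2, 7 with a positive log2 fold change and 1 at an unadjusted p under 0.05. Of the 10 markers of dorsal root ganglion neurons 4 passed the filter, and up to 4 of the 10 were at 0 in a library.

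Several lists that could mark differences in handling, time of day or stress held few calls or none. Of 28 endoplasmic reticulum chaperones none was called by edgeR or DESeq2, 1 had an unadjusted p under 0.05, and the median was 0.05, or 0.0246 without Rorb h3/h3 replicate 1. Their summed CPM overlapped between Rorb h3/h3 (2547 to 2693) and Rorb h4/h4 (2617 to 2714), and both lay under C57BL/6J (2897 to 3398). Of 19 sensors of endoplasmic reticulum stress and targets of ATF4, 15 had a positive log2 fold change and 1 was called by edgeR, Phgdh, where 0.800% of all genes were called higher. The summed CPM of the 19 was 770.2 to 779.6 in Rorb h3/h3 and 808.5 to 847.6 in Rorb h4/h4 without overlap, and 797.4 to 825.9 in C57BL/6J. The median was 0.06, and 0.0381 without Rorb h4/h4 replicate 3. DESeq2 called 3 of the 19, Phgdh, Slc7a11 and Vldlr, and 292 of all 17249 genes higher. By edgeR none was called of 13 clock genes of the E-box phase (2 at an unadjusted p under 0.05), of 4 of the opposite phase (1), of 15 glucocorticoid-induced genes (4), of 15 heat-shock genes (1) or of 17 immediate early genes (0). DESeq2 called Hlf of the E-box phase, Npas2 of the opposite phase and Nfkbia of the glucocorticoid-induced genes, and none of the heat-shock or immediate early genes. The largest fitted difference among these was that of Sgk1, a glucocorticoid-induced kinase, at 72.8 against 34.9 CPM (-1.06, SE 0.30, adjusted p = 0.129) with overlapping libraries. Cholesterol synthesis genes (18 tested, 3 at an unadjusted p under 0.05), endothelial and pericyte markers (14 tested, 0), ependymal markers (9 tested, 0), blood genes (9 tested, 4) and metallothioneins (3 tested, 0) held no edgeR or DESeq2 call. The blood list had the highest median of the 35 lists, 0.31, with the globin genes Hba-a1, Hba-a2, Hbb-bs and Hbb-bt at 0.33, 0.46, 0.31 and 0.44. Its median was 0.19 without Rorb h3/h3 replicate 1, 0.19 without Rorb h4/h4 replicate 3 and 0.51 in males alone, and its summed CPM overlapped (183.8 to 291.5 against 208.0 to 353.8). The part of blood content in the allele differences was not tested. Caudal and rostral Hox genes held no edgeR call among 10 and 11 tested and 1 and 0 by DESeq2, with 1 and 2 at an unadjusted p under 0.05 and medians of 0.01 and -0.03. The DESeq2 call was Hoxc13, higher in Rorb h4/h4 (1.12 against 1.90 CPM, 0.77, edgeR adjusted p = 0.0622). Of the other caudal genes Hoxa13 stood at 0.69 (0.668), Hoxb13 at 0.44 (0.817), Hoxa10 at -0.11 (0.619) and Hoxc10 at 0.0016 (0.996). The level at which the cords were cut was not tested.

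The called genes were also placed relative to C57BL/6J. The C57BL/6J mean log2 CPM was nearer to Rorb h3/h3 for 107 of the 220 called genes and nearer to Rorb h4/h4 for 113, a share close to the 53.2% of all genes tested. For 158 it lay between the alleles. Called genes were chosen for a gap between the alleles, which makes a level between them more likely, and the share over all genes was not counted. Without C57BL/6J replicate 2 the counts were 113 and 107. Of the 138 genes higher in Rorb h4/h4, C57BL/6J was nearer to Rorb h4/h4 for 77, and of the 82 lower ones for 36. By list, the C57BL/6J level was nearer to Rorb h4/h4 for 18 of 19 interferon, 11 of 13 myelin, 10 of 12 microglial and 10 of 11 cholinergic and motor neuron genes, and nearer to Rorb h3/h3 for 14 of 17 matrix genes. These are the lists of more than 10 tested genes with over 80% on 1 side. The median of the interferon list was 0.46 above C57BL/6J in Rorb h3/h3 and 0.14 above it in Rorb h4/h4. Top2a, a topoisomerase of dividing cells, stood at 0.382 to 0.855 CPM in Rorb h3/h3, 1.26 to 2.02 CPM in Rorb h4/h4 and 1.62 to 1.97 CPM in C57BL/6J (1.46, SE 0.26, adjusted p = 0.0155). Both comparisons with wild type share the same 3 control libraries.

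**Figure D4:**
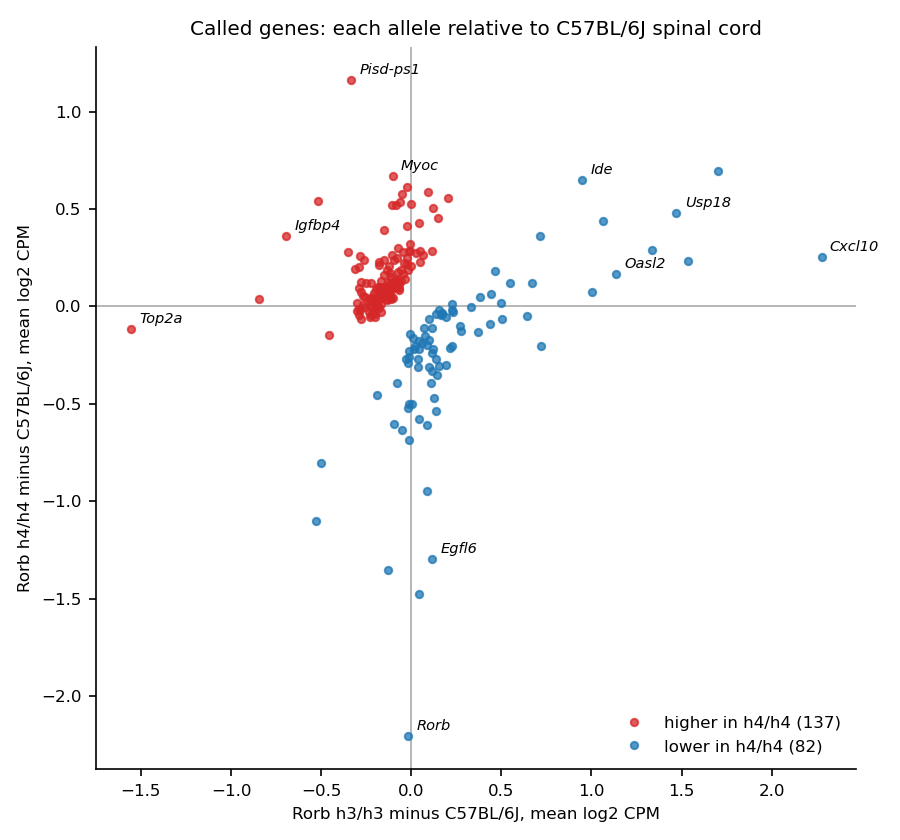
Mean log2 CPM of each called gene with a symbol relative to C57BL/6J, with Rorb h3/h3 on the horizontal and Rorb h4/h4 on the vertical axis, with genes higher in Rorb h4/h4 in red and lower ones in blue. Rorb and Egfl6 lie far below zero on the vertical axis near zero on the horizontal one, while Cxcl10, Oasl2 and Usp18 lie to the right, at 2.28, 1.13 and 1.47 on the horizontal axis and at 0.48 or less on the vertical one.

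Called genes were also placed on the chromosomes. Chromosome 19, which holds Rorb, had 16 called of 512 tested genes (3.13%), chromosome 1 had 23 of 966 (2.38%) and chromosome 3 had 17 of 791 (2.15%), against 1.28% over all genes. Within 5 Mb of Rorb 2 of 36 tested genes were called, Rorb itself and Aldh1a1, which makes retinoic acid. Aldh1a1 (chr19:20492583-20643463) held 126, 127, 132 and 130 CPM in Rorb h3/h3 and 150, 157, 148 and 156 CPM in Rorb h4/h4 (0.25, SE 0.03, adjusted p = 0.00356), with C57BL/6J at 152 to 161 CPM. Within 10 Mb there were 5 of 108, with Fads1 (0.19), Fth1 (0.23) and Mpeg1 (-0.29) beside them. Within 10 Mb of Il1r1 none of 95 genes was called by edgeR, and within 10 Mb of Tyr 1 of 119 was, Mfge8 (0.33). DESeq2 called 1 of the 95, Npas2, which lies within 5 Mb of Il1r1 (edgeR -0.39, adjusted p = 0.151). It called 8 of the 108 near Rorb and 1 of the 119 near Tyr.

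Ide, which encodes insulin-degrading enzyme, and Btaf1, a neighbouring transcription factor gene, lie further along chromosome 19 (chr19:37268743-37334544 and chr19:36926079-37014057). Ide held 132, 128.6, 133 and 135 CPM in Rorb h3/h3 and 106, 106, 110 and 107 CPM in Rorb h4/h4 (-0.30, SE 0.03, adjusted p = 3.16e-04). In C57BL/6J it held 70.5, 64.8 and 70.3 CPM, well under both alleles. Btaf1 showed the same order, with 59.7 ± 2.66, 46.8 ± 1.77 and 36.4 CPM (Rorb h4/h4 over Rorb h3/h3 -0.35, SE 0.04, adjusted p = 0.00172). The pseudogenes Pisd-ps1 and Pisd-ps2 and their parent Pisd, a phosphatidylserine decarboxylase, were higher in Rorb h4/h4 (1.502, 1.07 and 0.30). Pisd-ps1 held 11.9, 15.7, 15.9 and 12.4 CPM against 31.0, 38.6, 45.1 and 43.7 CPM. These 3 loci share much of their sequence, so the share of reads given to each is uncertain. The only called identifier without a symbol, ENSMUSG00000107260, had 0 counts in all 4 Rorb h3/h3 and all 3 C57BL/6J cords and 104, 253, 106 and 179 counts in Rorb h4/h4. Its level was at least 51.4-fold higher in Rorb h4/h4 than a floor of 3 counts per Rorb h3/h3 library. In brain its counts were 200, 0, 786 and 0 in Rorb h3/h3 and 18, 82, 0 and 0 in Rorb h4/h4, so libraries of 1 group ran from 0 to 786 counts.

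The brain hemisections of the same 8 mice gave far fewer calls. Of 17526 genes tested 23 were called (0.131%), and 18 of these were also called in cord, which is 78.3% of the brain calls and 8.18% of the cord calls. All 18 had the same direction in both tissues. They were Rorb, Egfl6, Pisd-ps1, Pisd-ps2, Pisd, Ide, Myoc, Chi3l1, C4b, Il33, Mfge8, Lgi4, Heph, Apln, Emp2, Irak2, Dio2 and Tnfrsf19. The tissues come from the same animals, so a difference of strain or colony would enter both. Myoc held 14.9, 15.7, 12.3 and 14.0 CPM in Rorb h3/h3 brain and 31.5, 34.0, 32.6 and 33.6 CPM in Rorb h4/h4 brain (1.22, SE 0.07, adjusted p = 3.99e-06). Chi3l1, a chitinase-like protein of astrocytes, was lower in both, at 17.99 ± 1.41 against 12.7 ± 0.713 CPM in cord (-0.50, adjusted p = 0.00408) and at -0.66 (adjusted p = 0.00949) in brain. The alarmin Il33, which oligodendrocytes and astrocytes make, was higher in both, at 0.28 (adjusted p = 0.0442) in cord and 0.31 (adjusted p = 0.0154) in brain, but its cord call held in 1 of the 8 fits that left out a library, at adjusted p up to 0.168.

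Of the 220 cord calls, 183 (83.2%) had the same direction in brain and 83 (37.7%) an unadjusted p under 0.05 there. Of all 16706 genes tested in both tissues 54.6% had the same direction and 7.01% such a p in brain, and the tissues came from the same animals. The interferon genes had a median of -0.29 in brain with no edgeR call, and the myelin genes a median of 0.09. Cxcl10 stood at -1.08 and Oasl2 at -0.58 (adjusted p = 0.154) in brain. A difference between the tissues was called for 3 of 18309 genes (0.0164%), Igfbp4, Shisa6 and the identifier without a symbol, and 1498 had an unadjusted p under 0.05. Leaving out Rorb h3/h3 replicate 1 gave 7 such calls and leaving out replicate 3 gave 1. For Grin2c the difference between the tissues was -0.50 (SE 0.13, adjusted p = 0.307), so that a change limited to cord was not shown.

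**Figure D5:**
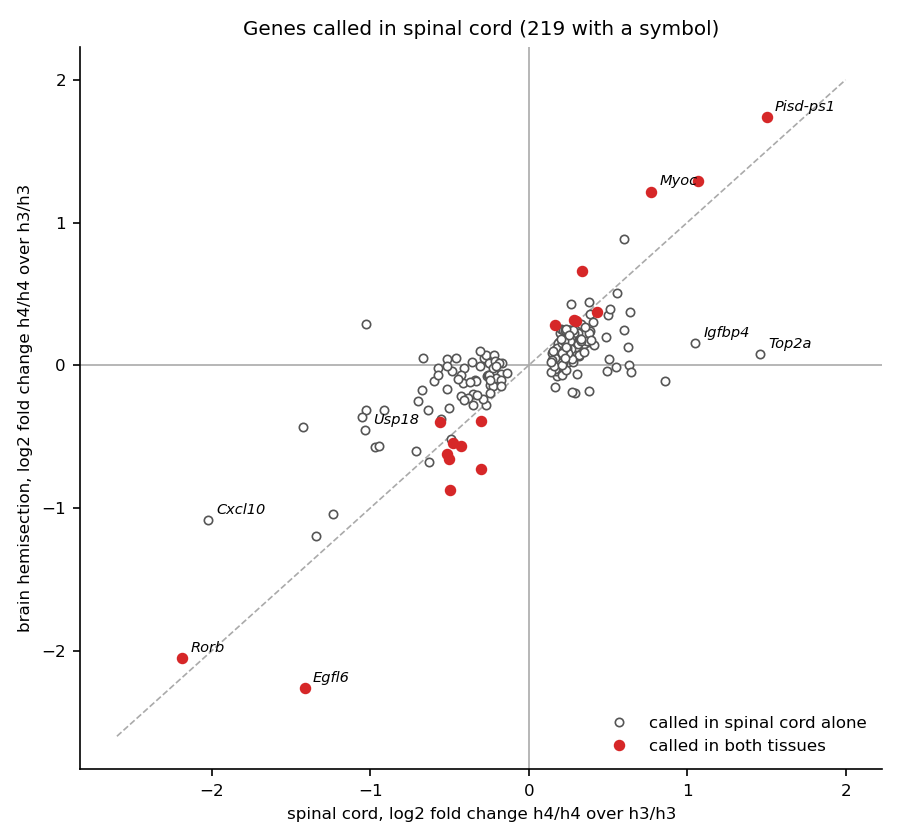
log2 fold change of Rorb h4/h4 over Rorb h3/h3 in spinal cord (horizontal) and in brain hemisection of the same mice (vertical) for the 219 called genes with a symbol, with genes called in both tissues filled and the dashed line marking equal values. Rorb, Egfl6, Pisd-ps1 and Myoc lie far from zero in both tissues, while Igfbp4 and Top2a lie near zero in brain.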

How the data were processed

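RNA of spinal cords and brain hemisections was sequenced by the authors as paired reads from polyadenylated RNA, trimmed with Trim Galore, checked with FastQC, aligned with STAR to GRCm38 and quantified per gene with RSEM. The annotation release and the strand setting are not given in the sources used here. The deposited expected counts are estimated fragments per gene, and the deposited TPM values were adjusted by the authors' RSEM run for transcript length and depth. Expected counts were rounded here, and TPM was used only to set genes side by side.

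Totals were 39052045 to 59120510 counts in the 8 spinal cord libraries, of which 2.26% to 10.1% came from identifiers without a symbol and 5.85% to 6.92% from mitochondrial genes. Of 12 replicate pairs none held identical values. Kdm5d, on chromosome Y, was at 0 in every library labelled female and at 39.9 CPM or above in every one labelled male. Symbols came from a later annotation for 41407 of 45706 identifiers, and positions in GRCm38.p6 from RefSeq for 31375.

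Rorb h4/h4 was tested against Rorb h3/h3 with edgeR 4.0.16 in R 4.3.3 (TMM, filterByExpr, quasi-likelihood test, genotype alone), with Benjamini-Hochberg adjustment over all genes tested and calls at 0.05. Brain was fitted in the same way, and the tissue difference with the animal as a block. Printed CPM was scaled over the C57BL/6J, Rorb h3/h3 and Rorb h4/h4 libraries of a tissue. A standard error is the log2 fold change over the square root of the F statistic. Rorb and Il1r1 were also compared by exact permutation. Principal components used log2 CPM with a prior count of 2. Scripts were tested on simulated data. Alternatives were DESeq2 1.42.0 (the authors' test), its size factors, no count filter, sex or age as a covariate, a replicate block, 1 fit of all groups, symbols only, each library left out and, chosen after seeing the data, males alone.

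Named genes were Rorb, Il1r1 and Tyr, the 12 called genes with the smallest p-values in each direction, up to 4 called members of each list or else the 2 with the smallest p, called genes within 10 Mb of the 3 loci, and the 6 smallest p-values of the tissue difference. Genes named beside these are list members or were chosen after their values were seen. The members and lists were chosen with earlier results of these data known. Motifs were searched in the 250 bases before each RefSeq start, and 161 of the 220 called genes had such a window. Replicates are separate mice. Some list members and genes that the naming rule picks are not reported here.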

Additional observations from a re-analysis of the deposited data

Results flagged for a closer look

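Among the 92 named genes, 184 groups of 4 spinal cord libraries were tested for a library far from the other 3, and 8 were found, where chance flags about 1 in 20. In Rorb h3/h3, Pdyn stood at 14.4 CPM in replicate 2 against 13.2 to 13.4 in the others, and Phgdh at 63.8 CPM in replicate 2 against 58.8 to 59.4. Kl stood at 4.27 CPM in Rorb h3/h3 replicate 4 against 6.134 to 6.23, and Hoxa4 at 4.63 CPM in the same library against 3.85 to 3.90. The clock gene Bmal1 stood at 10.1 CPM in Rorb h3/h3 replicate 1 against 15.5 to 16.6. In Rorb h4/h4, Arc stood at 19.7 CPM in replicate 1 against 22.5 to 22.6. The chromosome Y genes Kdm5d and Uty were at 0 in Rorb h3/h3 replicate 3, the only female of that group, against 39.9 to 43.1 and 20.4 to 24.5 CPM.

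The allele difference was unlike in cord and brain for 3 genes by the edgeR test of the difference itself. The log2 fold change in cord minus that in brain was 0.89 for Igfbp4 (adjusted p = 0.00300) and -0.44 for Shisa6 (adjusted p = 0.0464). For ENSMUSG00000107260 the fitted value was 13.47, which depends on the prior count since all Rorb h3/h3 cords were at 0.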

How the results depend on the processing

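The 220 cord calls became 504 with DESeq2, 570 in 1 fit of all groups, 439 with age as a covariate, 139 with sex as a covariate, 19 in males alone and 101 to 174 with 1 library left out. With the replicate number as a block there were 242. Replicate numbers named different mice in the alleles and did not pair them, with correlations of same-numbered deviations from -0.18 to 0.10. Brain calls went from 23 to 88 with DESeq2, to 5 with the replicate block and to 15 to 27 with a library left out, and calls of the tissue difference from 3 to between 1 and 7 with an animal left out. The median of the inhibitory dorsal horn list (-0.13) was -0.0443 in males alone and -0.16 to -0.11 with a library left out. The excitatory median (-0.05) was -0.0861 to -0.0277 with a library left out, and the median of 4 ganglion genes (0.22) was 0.0576 in males alone and 0.048 to 0.30 with a library left out. The causes were not tested. No named gene called in either fit changed direction in any alternative. Of 35 list medians 13 changed sign in at least 1 setting, 12 of them under 0.07 in size and the other that of sex chromosome markers. The immediate early median (-0.07) was 0.12 in males alone and 0.0460 without Rorb h4/h4 replicate 1, the opposite-phase clock median (-0.06) 0.0378 in males alone, the E-box clock median (-0.03) 0.0561 without Rorb h3/h3 replicate 1 and the caudal Hox median (0.01) -0.11 without Rorb h4/h4 replicate 1. Among all results and settings 2017 values stayed as reported, 29 gained a call, 46 moved beyond their spread and the rest lost a call. DESeq2 size factors gave 216 calls and no count filter 326 of 25883 genes. With 4 mice an allele, each its own line and of unequal sex ratio, precision is limited by the number of mice, and all calls compare lines rather than a single base.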

Other observations

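Further called genes were named after their values were seen, so they carry no test as sets. Single genes of lipid metabolism called higher in Rorb h4/h4 had log2 fold changes of 0.19 for the desaturase Scd1, 0.16 for Scd2, 0.19 for the desaturase Fads1, 0.35 for the elongase Elovl2, 0.22 for the ceramide synthase Cers2 and 0.32 for the glycolipid transfer protein Gltp, whereas none of 18 cholesterol synthesis genes was called by edgeR or DESeq2 (3 at an unadjusted p under 0.05). The peptide apelin and its receptor went opposite ways, Apln at -0.30 (edgeR adjusted p = 0.0112) and Aplnr at 0.38 (edgeR adjusted p = 0.0263). At low levels, Top2a stood at 0.594 CPM in Rorb h3/h3 against 1.64 CPM in Rorb h4/h4 and the mitotic kinesin Kif4 at 1.07 CPM against 1.96 CPM (0.86, edgeR adjusted p = 0.0371).

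Outside the interferon list, further genes known to respond to interferon, also named after their values were seen, were called lower in Rorb h4/h4, among them Parp14 (-0.57), Gbp7 (-0.43), Iigp1 (-0.91), Zc3hav1 (-0.43), H2-T23 (-0.37), H2-Q7 (-0.94) and Lgals3bp (-0.55). For Lgals3bp the mean was 23.3 CPM in Rorb h3/h3, 15.8 CPM in Rorb h4/h4 and 14.6 CPM in C57BL/6J.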
